A study of Rattus norvegicus with 6 samples.

Results

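The genes described are 10 usual markers of macrophages, chosen by name: Mrc1, Cd68, Csf1r, Ptprc, Tyrobp, Fcer1g, C1qa, C1qb, C1qc and Aif1. Each name matched 1 row, so all 10 were found among the 34257 genes of the table. The study treated cultured ventricular heart muscle cells isolated from newborn rats with perhexiline, an antianginal drug that inhibits carnitine palmitoyltransferase 1, at 1 µM for 24 h, and compared them with cells given vehicle. Poly(A) RNA was sequenced in 3 vehicle and 3 perhexiline libraries. No strain, genotype or sex is labelled, neither the vehicle nor its duration is given, and the labels do not say whether replicates came from separate cultures or litters. The p-values therefore describe the spread among these 6 libraries, which may be technical.

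Macrophages are phagocytes that live in the heart from before birth, clear dead cells and debris, and depend for survival on the growth factors CSF1 and IL-34 acting on the receptor encoded by Csf1r. Many of their surface receptors lack signalling domains and pass signals through small adaptor proteins, those encoded by Tyrobp and Fcer1g, whose cytoplasmic motifs (ITAMs) recruit the kinase SYK. Cultures of newborn rat heart muscle cells are enriched for cardiomyocytes by the isolation and can hold other heart cells. In RNA from a whole culture, fewer macrophages and less of each RNA per macrophage cannot be told apart.

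The values are FPKM, fragment counts scaled to gene length and to a total for each library, which can be compared between genes. The total used differed from the sum of the library's fragments recovered here. Each library held 13616252 to 16702523 fragments, recovered from these values, and a single fragment added 0.0574 to 0.0727 FPKM to a gene 1 kilobase long. The labelled cell type was borne out by its markers, since 14 cardiomyocyte genes summed to 22182 to 27580 FPKM with vehicle and 19619 to 22838 with perhexiline. The 10 macrophage genes summed to 71.2 to 80.1 FPKM with vehicle and 36.9 to 60.6 with perhexiline. In fragments, the 10 genes together held 837 to 1814 per library.

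The starts of these genes are shown because myeloid genes are commonly read by the ETS-family factor PU.1 (gene Spi1), whose sites contain a GGAA core. RefSeq promoter sequences on the build GRCr8 were matched by symbol for 6 of the 10 genes, Mrc1, Cd68, Csf1r, C1qa, C1qb and Ptprc. The motif GAGGAA, searched on both strands (TTCCTC on the other), occurred in the 250 bases before the start in 5 of these 6, against 23.3% of 33469 rat promoters searched alike. The windows of Csf1r and Ptprc, counted among the 5, do not adjoin the annotated end of the gene, so their matches may not lie before its start, and they are not printed. Of the other 4 genes, 3 held the motif. The longer GAGGAAGT (ACTTCCTC on the other strand) occurred in 0 of the 6 and in 2.04% of all promoters. The 120 bases before the start are printed 5′ to 3′ on the gene's strand, with the 6-base motif or its reverse complement in capitals, for Mrc1 (chr17:82157605-82157724, plus strand), Cd68 (chr10:54882442-54882561, minus strand), C1qb (chr5:154407828-154407947, minus strand) and C1qa (chr5:154419934-154420053, minus strand).
Mrc1: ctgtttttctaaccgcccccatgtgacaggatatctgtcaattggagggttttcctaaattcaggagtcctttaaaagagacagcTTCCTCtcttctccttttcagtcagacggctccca
Cd68: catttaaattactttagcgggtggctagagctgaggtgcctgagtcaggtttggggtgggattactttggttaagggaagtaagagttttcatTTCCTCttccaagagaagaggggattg
C1qb: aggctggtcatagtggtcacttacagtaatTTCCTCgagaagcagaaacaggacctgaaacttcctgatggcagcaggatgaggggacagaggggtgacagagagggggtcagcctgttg
C1qa: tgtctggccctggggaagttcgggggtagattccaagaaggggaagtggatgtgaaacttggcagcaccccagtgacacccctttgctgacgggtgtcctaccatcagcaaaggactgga
The motif began 35 bases before the start in Mrc1, 27 bases before it in Cd68 and 90 bases before it in C1qb, in each case as the reverse complement. C1qa had no match in its 250 bases. A match is a string of letters and not a measured binding site.

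All 10 macrophage genes had a lower mean with perhexiline than with vehicle, and 3 of the 9 that could be tested fell: Mrc1, Tyrobp and C1qa. The mannose receptor gene Mrc1 fell to 0.448 times its vehicle mean, C1qa to 0.542 times and Tyrobp to 0.559 times. Aif1 was too low for the filter (at least 1 FPKM in at least 3 libraries) and was not tested. Of 13460 genes tested with limma on log2(FPKM + 1), 418 were called lower at an adjusted p under 0.05, which is 3.11%, and 478 were called higher, which is 3.55%. Scaling to total fragments gave 337 lower and 815 higher and scaling to the upper quartile 498 and 367, with the same 3 members called in both. At an unadjusted p under 0.05, 6 of the 9 members were lower, against 12.3% of all tested genes. No member was called higher, either by adjusted or by unadjusted p (13.4% of all tested genes) or with limma-voom (5.62%). In 6 of the 9 tested members all perhexiline libraries lay below all vehicle libraries, against 14.9% of all tested genes. Ptprc, counted among these 6, passed the filter only through its vehicle libraries, so its place in these counts leans on that group. The median difference of the 9 tested members was -0.51 on the log2(FPKM + 1) scale, beside 0.01 for all tested genes.

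**Figure D1:**
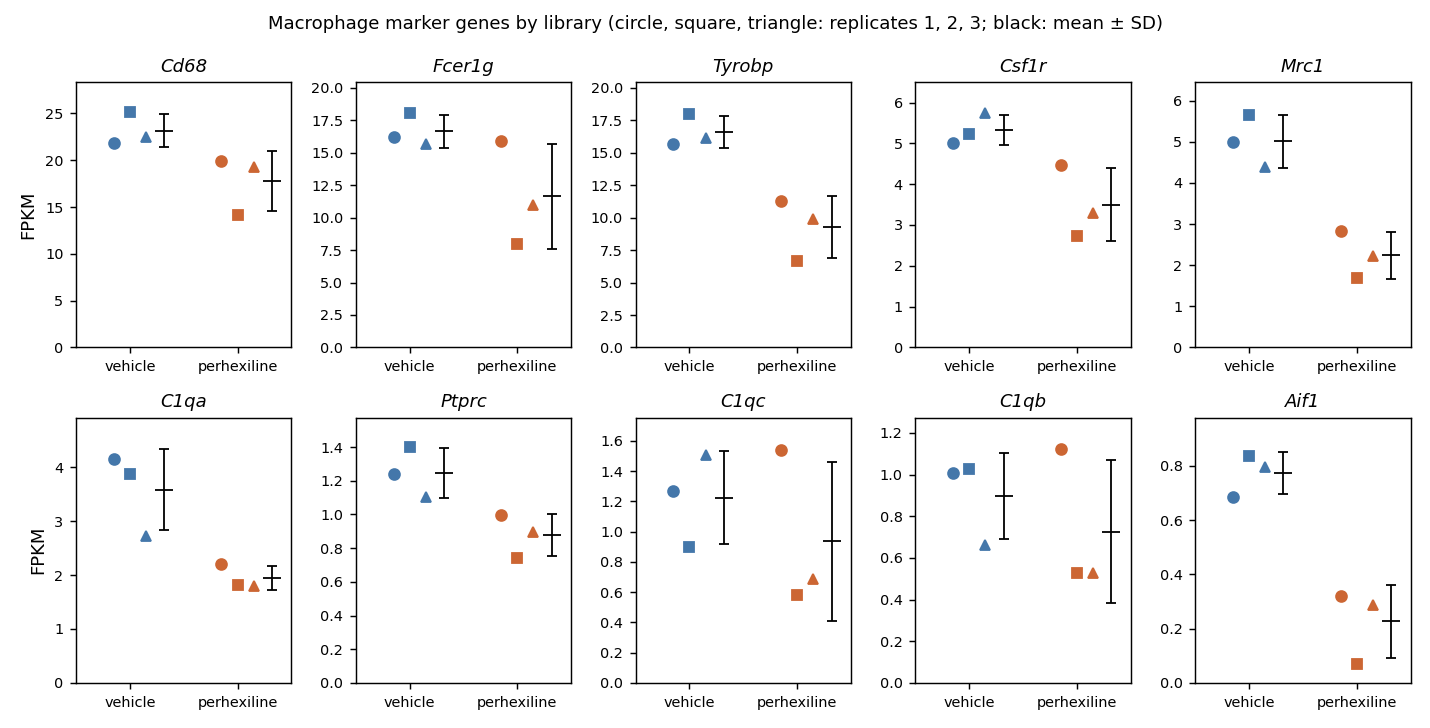
FPKM of each macrophage marker gene in the 3 vehicle (blue) and 3 perhexiline (orange) libraries, 1 panel a gene in the order of vehicle level, with the mean ± SD of each group in black. Every panel has its own axis from 0; the groups are apart for Cd68, Tyrobp, Csf1r, Mrc1, C1qa, Ptprc and Aif1 and overlap for Fcer1g, C1qc and C1qb.

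The calls depended on single libraries. With limma, 0 members were called without vehicle replicate 1, without vehicle replicate 2 or without perhexiline replicate 3 (5, 4 and 5 at an unadjusted p under 0.05), 1 without perhexiline replicate 2, 2 without vehicle replicate 3 and 4 without perhexiline replicate 1. Few genes of any kind were called lower in the first 3 of these fits, 30, 42 and 31, or 0.223%, 0.312% and 0.23% of those tested, while 9.32%, 9.67% and 10.4% of all genes had an unadjusted p under 0.05 on the lower side. Without perhexiline replicate 2 the share of all genes called lower was 0.379%, without vehicle replicate 3 it was 3.34% and without perhexiline replicate 1 it was 3.15%. Limma-voom on the recovered fragments of all 6 libraries called 4 members, adding Csf1r, and 5.98% of all genes lower. All 9 differences were below 0 in each of these fits.

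Among the surface receptors, Mrc1 had the most negative tested difference. Mrc1 encodes CD206, which binds mannose-bearing glycoproteins and takes them up, and is a usual marker of resident macrophages. Its row lies on chromosome 17, from 81352700 to 81433743, in the coordinates of the deposited table, for which no source used here names a build. Mrc1 stood at 4.99, 5.66 and 4.39 FPKM in vehicle replicates 1 to 3 and at 2.83, 1.69 and 2.21 in perhexiline replicates 1 to 3, from 139 to 453 fragments per library. The highest perhexiline library was thus well below the lowest vehicle library. The difference was -0.90 ± 0.15 (SE; limma adjusted p = 0.0221, lower in 3 of 3 perhexiline libraries), and the call held in 2 of the 6 fits without 1 library (highest adjusted p = 0.0791).

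Csf1r, the receptor kinase for CSF1 and IL-34 (chromosome 18, 56414488 to 56458300), did not pass the test. It stood at 5.02, 5.22 and 5.75 FPKM with vehicle and at 4.47, 2.73 and 3.30 with perhexiline. The groups did not overlap, with perhexiline replicate 1 close under the lowest vehicle library. Its difference was -0.51 ± 0.14 (SE; limma adjusted p = 0.0748), and Csf1r passed without perhexiline replicate 1 (0.0297) and with limma-voom (0.0224).

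Ptprc encodes CD45, the tyrosine phosphatase carried by nucleated blood-derived cells in general (chromosome 13, 55061562 to 55173692). Its 3 vehicle libraries held 1.24, 1.40 and 1.10 FPKM and its 3 perhexiline libraries 0.995, 0.744 and 0.897. All 3 perhexiline values were under 1 FPKM, so Ptprc passed the filter on low values only through its vehicle libraries. The groups did not overlap, but the gap between 1.10 and 0.995 was smaller than the spread within either group. The difference of -0.26 ± 0.13 (SE) did not pass (limma adjusted p = 0.247, 95% interval -0.55 to 0.04).

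Cd68, a glycoprotein of lysosome and endosome membranes, was the most abundant member (chromosome 10, 56268720 to 56270640). It stood at 21.8, 25.2 and 22.5 FPKM with vehicle and at 19.9, 14.1 and 19.3 with perhexiline, so the groups did not overlap and perhexiline replicate 2 lay apart below the other two. Its difference of -0.38 ± 0.13 (SE) did not pass (limma adjusted p = 0.116). In the mean, Cd68 with perhexiline was 23.3% below vehicle, against 55.2% for Mrc1.

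The adaptor genes had nearly equal levels with vehicle, and Tyrobp was the lower of the pair in every perhexiline library. Tyrobp encodes DAP12, the partner of receptors such as TREM2 (chromosome 1, 88875375 to 88879303). It stood at 15.7, 18.0 and 16.1 FPKM with vehicle and at 11.3, 6.65 and 9.89 with perhexiline, with a wide gap between the groups. Tyrobp fell by 0.80 ± 0.16 on the log2(FPKM + 1) scale (SE; limma adjusted p = 0.0358, lower in 3 of 3 libraries), and the call held in 2 of the 6 fits without 1 library (highest adjusted p = 0.11).

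Fcer1g encodes the common gamma chain of the activating Fc receptors for IgG and IgE (chromosome 13, 89601896 to 89606326). It stood at 16.2, 18.0 and 15.6 FPKM with vehicle and at 15.9, 7.97 and 11 with perhexiline. Perhexiline replicate 1 fell within the vehicle range, while the other two were below it. The difference of -0.53 ± 0.20 (SE) did not pass (limma adjusted p = 0.16). Without perhexiline replicate 1 Fcer1g passed, with a difference of -0.76 (adjusted p = 0.0306). The ratio of Tyrobp to Fcer1g was 0.965, 0.998 and 1.03 in the vehicle libraries and 0.71, 0.835 and 0.899 in the perhexiline ones, without overlap.

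**Figure D2:**
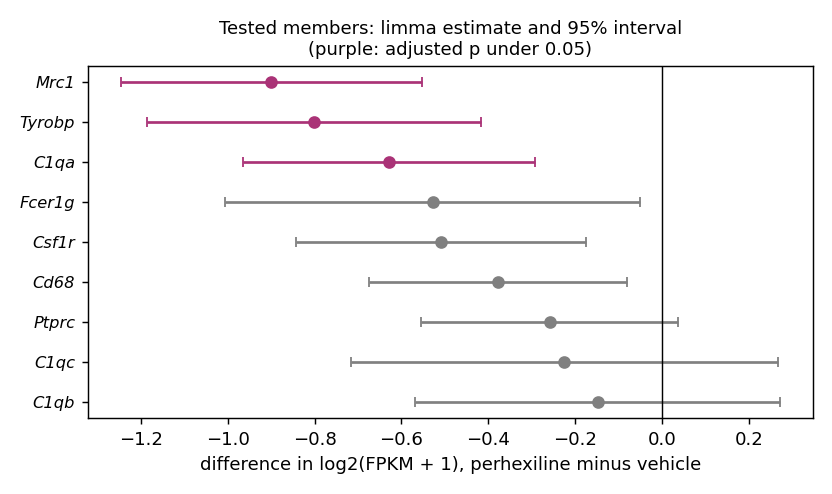
Difference in log2(FPKM + 1), perhexiline minus vehicle, for the 9 tested members, as the limma estimate (point) with its 95% interval (bar); purple marks an adjusted p under 0.05. Mrc1, Tyrobp and C1qa are purple, and the intervals of Ptprc, C1qc and C1qb cross 0.

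The 3 chains of complement C1q, which together form the protein that binds antibody complexes and dying cells and starts the classical pathway, did not give the same result. Their rows lie side by side on the minus strand of chromosome 5, C1qb from 155246447 to 155252003, C1qc from 155255005 to 155258392 and C1qa from 155261250 to 155264143. C1qa stood at 4.16, 3.87 and 2.73 FPKM with vehicle and at 2.21, 1.82 and 1.81 with perhexiline, from 30 to 62 fragments per library. All its perhexiline libraries were below the lowest vehicle library. C1qa fell by 0.63 ± 0.14 on the log2(FPKM + 1) scale (SE; limma adjusted p = 0.0451), and the call held in 1 of the 6 fits without 1 library (highest adjusted p = 0.144).

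C1qb stood at 1.01, 1.03 and 0.66 FPKM with vehicle and at 1.12, 0.529 and 0.53 with perhexiline. C1qc stood at 1.27, 0.90 and 1.51 FPKM with vehicle and at 1.54, 0.584 and 0.684 with perhexiline. For both chains perhexiline replicate 1 was the highest of all 6 libraries and the other perhexiline libraries were the lowest. Neither passed (limma adjusted p = 0.644 for C1qb and 0.54 for C1qc), with 95% intervals of -0.57 to 0.27 and -0.72 to 0.27. They rested on 9 to 21 and 10 to 29 fragments per library, and the log2(FPKM + 1) scale shrinks differences of genes this low. Whether the chains differed from each other in their response was not tested. Per length, C1qa stood at 1.43 to 4.30 times the level of either other chain, taken over all 6 libraries.

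Aif1 encodes IBA1, a calcium-binding protein of the actin cytoskeleton (chromosome 20, 5161333 to 5166448). It stood at 0.687, 0.836 and 0.795 FPKM with vehicle and at 0.321, 0.0708 and 0.287 with perhexiline, which is 17, 23 and 20 fragments against 10, 2 and 9. The groups did not overlap, and the perhexiline mean was 0.293 times the vehicle mean. Without the filter on low values its difference was -0.54 ± 0.10 (SE; limma adjusted p = 0.0722 among 22998 genes), and no member passed in that fit (7 of 10 at an unadjusted p under 0.05, against 8.07% of all genes; 0.274% of all genes were called lower).

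In order of vehicle level, the members ran from Cd68 (23.2 ± 1.78 FPKM, mean ± SD, n = 3) through Fcer1g (16.6 ± 1.25), Tyrobp (16.6 ± 1.24), Csf1r (5.33 ± 0.375), Mrc1 (5.01 ± 0.638), C1qa (3.59 ± 0.757), Ptprc (1.25 ± 0.147), C1qc (1.23 ± 0.307) and C1qb (0.898 ± 0.206) to Aif1 (0.773 ± 0.0771). The vehicle libraries of neighbours overlapped for Fcer1g and Tyrobp, for Csf1r and Mrc1, and for each step from Ptprc down. With perhexiline, the means were 17.8 ± 3.19 for Cd68, 11.6 ± 4.02 for Fcer1g, 9.28 ± 2.39 for Tyrobp, 3.50 ± 0.885 for Csf1r and 2.24 ± 0.568 for Mrc1 (mean ± SD, n = 3). Mrc1 was below Csf1r in all 3 perhexiline libraries, at 0.619 to 0.671 times its level, and stood at 0.763 to 1.08 times its level with vehicle. The ratio of Mrc1 to Cd68 was 0.195 to 0.228 with vehicle and 0.115 to 0.142 with perhexiline, and that of Tyrobp to Cd68 0.715 to 0.718 and 0.471 to 0.567. These ratios were chosen with the levels known and are descriptions.

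The members varied together between libraries of the same group. Of the 3 perhexiline libraries, replicate 1 held the highest value of all 10 members and replicate 2 the lowest of 9, the exception being C1qa. Among the vehicle libraries, replicate 2 was highest for 7 of the 10. The summed level was 60.6 FPKM in perhexiline replicate 1, 36.9 in replicate 2 and 49.9 in replicate 3, against 72.1, 80.1 and 71.2 in vehicle replicates 1 to 3. Relative to its vehicle mean, Mrc1 stood at 0.564, 0.337 and 0.442 in perhexiline replicates 1 to 3, Tyrobp at 0.681, 0.401 and 0.596 and Cd68 at 0.86, 0.609 and 0.832. Of the 45 pairs of members, all had a positive Pearson r of their deviations from group means over the 6 libraries, with a median of 0.73 and a range from 0.05 (C1qa with C1qc) to 0.98 (Tyrobp with Cd68). These points share their libraries and so their depth and culture.

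**Figure D3:**
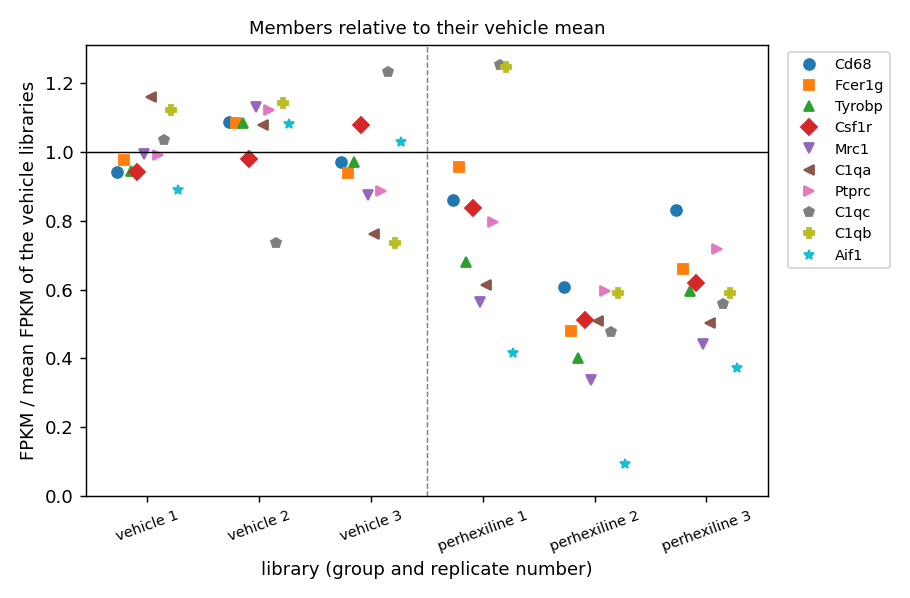
FPKM of each macrophage marker gene divided by its mean over the vehicle libraries, by library; each symbol is a gene and the line at 1 is the vehicle mean. C1qb and C1qc lie above 1 in perhexiline replicate 1, and all 10 genes lie below 1 in perhexiline replicates 2 and 3.

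Other genes of macrophages moved as well. Of 20 listed genes of resident macrophages, 19 were in the table, 7 could be tested, 3 fell and none rose (0 at an unadjusted p, and 0 with limma-voom), with a median difference of -0.54. For this list and those that follow, 3.11% of all tested genes were called lower and 3.55% higher. Cd84, a homophilic receptor of blood cells, went from 2.34 ± 0.132 to 1.10 ± 0.168 FPKM (limma adjusted p = 0.0237; errors here and below are SD over 3 libraries). Trem2, a lipid-sensing receptor that signals through the product of Tyrobp, went from 4.02 ± 0.513 to 2.29 ± 0.206 (0.028), and the folate receptor gene Folr2 from 4.30 ± 0.464 to 2.17 ± 0.822 (0.0498). Several usual markers were at 0 or under 1 FPKM in all libraries and are named after their values were seen: Cx3cr1 and Marco were listed at 0, Adgre1 at 0.0779 to 0.421 FPKM and Cd163 at 0.285 to 0.967. The summed level of the list was 271 to 313 FPKM with vehicle and 232 to 268 with perhexiline, most of it from Gas6 and Pf4, which are not limited to macrophages. None of the 3 calls held when replicate 1 or 2 of the vehicle group, or 2 or 3 of the perhexiline group, was left out.

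Of 13 tested genes shared by most leukocytes 1 fell and none rose, while 9 had an unadjusted p under 0.05 on the lower side, against 12.3% of all tested genes, and limma-voom called 7 lower, against 5.98%. Lcp2, counted among the 9 and named after its values were seen, passed the filter on low values only through its vehicle libraries. The fall was that of Laptm5, a lysosomal membrane protein of blood cells, from 12.9 ± 0.296 to 8.81 ± 0.782 FPKM (limma adjusted p = 0.0185), a call that held in 2 of the 6 fits without 1 library. The list's median difference was -0.44 and its summed level 98.2 to 105 FPKM with vehicle and 71.4 to 87.8 with perhexiline. The phagocyte oxidase, which makes superoxide in phagosomes, had 2 falls and no rise among 5 tested genes, beside 3.11% of all tested genes called lower. Its membrane subunit gene Cybb went from 9.86 ± 0.965 to 6.67 ± 0.90 FPKM (limma adjusted p = 0.0395) and its cytosolic subunit gene Ncf1 from 21.2 ± 1.44 to 15.9 ± 1.91 (0.0486). When single libraries were left out, Ncf1 lost its call in all 6 fits and Cybb kept it in 1.

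The ITAM signalling list holds receptors, kinases and other proteins tied to that signalling. Of its 19 tested genes 3 fell and none rose, beside 3.11% of all tested genes called lower, with a median of -0.20. Among the 3 were Trem2 and Lyn, a Src-family kinase gene, which went from 10.2 ± 0.338 to 7.56 ± 0.895 FPKM (limma adjusted p = 0.043). The call of Lyn held in 1 of the 6 fits without 1 library. The list shares Trem2, Clec7a, Fcgr1a, Ptpn6 and Rac2 with other lists here.

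Of 15 tested genes of CSF receptors, their ligands and myeloid transcription factors, 3 rose and none fell (0 at an unadjusted p, and 0 with limma-voom), with a median of 0.17 and 6 of the 15 differences below 0. Of all tested genes, 3.55% were called higher. Csf1, the ligand of the receptor encoded by Csf1r, stood at 27.7, 27.4 and 32 FPKM with vehicle and at 35.5, 42.9 and 42.0 with perhexiline, without overlap (limma adjusted p = 0.0342; held in 2 of 6 fits without 1 library). Csf2rb, the shared beta chain of the receptors for GM-CSF, IL-3 and IL-5, rose from 15 ± 1.07 to 28.3 ± 1.58 FPKM (0.00508) and passed in all 6 such fits. The transcription factor gene Runx1 rose from 3.27 ± 0.547 to 5.94 ± 0.547 (0.0224; held in 3 of 6). Further genes of the list are named after their values were seen. Il34, whose product also binds the receptor encoded by Csf1r, had means of 1.40 ± 0.218 and 0.982 ± 0.152 FPKM in the vehicle and perhexiline groups (adjusted p = 0.235), and Csf2ra, the alpha chain of the GM-CSF receptor, had means of 7.35 ± 0.846 and 5.33 ± 1.66 (0.219). Neither passed, and for both all perhexiline libraries lay below all vehicle libraries. They were the only 2 of the 15 tested genes for which this was so, against 14.9% of all tested genes. For 5 of the 15, all perhexiline libraries lay above all vehicle libraries, a count whose share among all tested genes was not taken. At an unadjusted limma p under 0.05, 4 of the 15 were higher, against 13.4% of all tested genes. Spi1, the gene of PU.1 and named here for its role at myeloid promoters, stood at 4.96, 5.06 and 4.77 FPKM with vehicle and at 4.88, 2.99 and 3.60 with perhexiline and did not pass (adjusted p = 0.208).

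Complement genes outside C1q split. Of 15 tested, 2 rose and 2 fell, beside 3.55% and 3.11% of all tested genes, with a median of -0.09. The proteases that join C1q in the first complement complex rose, C1r from 95.6 ± 2.61 to 125 ± 4.45 FPKM (limma adjusted p = 0.0113) and C1s from 52.0 ± 5.54 to 73.9 ± 0.437 (0.0192). The anaphylatoxin receptor gene C3ar1 fell from 2.48 ± 0.249 to 1.10 ± 0.137 (0.0207) and Cd59, an inhibitor of the membrane attack complex, from 149.5 ± 13.6 to 114 ± 10.8 (0.0451). C1r passed in 5 of the 6 fits without 1 library, C1s in 3 and C3ar1 and Cd59 in 2 each.

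Cytokine and effector genes that macrophages, among other cells, can make rose in part. Of 14 tested, 7 rose and none fell (0 at an unadjusted p, and 0 with limma-voom), with a median of 0.44. Beside the rises in this and the other lists of this paragraph, 3.55% of all tested genes were called higher. Ccl2, which attracts monocytes, went from 74.0 ± 10.9 to 182 ± 36.6 FPKM (limma adjusted p = 0.011). The cytokine gene Il6 had a mean of 0.502 FPKM with vehicle and 3.28 with perhexiline, and the chemokine genes Cxcl1 and Cxcl10 went from 10.3 to 77.1 and from 7.09 to 30.1. Each of these 4 kept its call in at least 5 of the 6 fits without 1 library. Il6 was under 1 FPKM in all vehicle libraries, so it passed the filter on low values only through the perhexiline group. The same held for Cxcl2, also among the 7 that rose and named after its values were seen. The summed level of all 22 listed genes found was 178 to 206 FPKM with vehicle and 332, 503 and 406 in perhexiline replicates 1 to 3. In perhexiline replicate 2, Ccl2 held 221 and Cxcl1 121 FPKM of that sum. That library had the highest summed cytokines and the lowest summed macrophage markers. Among the vehicle libraries the 2 sums did not run in opposite order, since replicate 3 was lowest for both. Tnf and Il1b, named after their values were seen, were at or under 0.364 FPKM in all 6 libraries. Of 26 tested scavenger receptor and lysosome genes 3 rose, namely Fabp5, a fatty acid binding protein, Cd63, a late endosome membrane protein, and Olr1, an oxidised-lipoprotein receptor, from 12.9 ± 0.937 to 27.8 ± 4.45 (0.00856). None of these 26 fell, although 7 had an unadjusted p under 0.05 on the lower side, against 12.3% of all tested genes, and limma-voom called 4 lower. Of 8 tested monocyte and recruited myeloid genes, Chi3l1, a chitinase-like secreted protein, rose from 11.7 ± 4.43 to 28.2 ± 1.13 FPKM (0.033), none fell, and limma-voom called 2 lower. The call of Chi3l1 held in 1 of the 6 fits without 1 library (highest adjusted p = 0.102). The MHC class II list had 1 tested gene, Cd74, the invariant chain, at 1.49 ± 0.40 and 0.854 ± 0.0838 FPKM (0.13). Cd74 passed the filter only through its vehicle libraries.

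**Figure D4:**
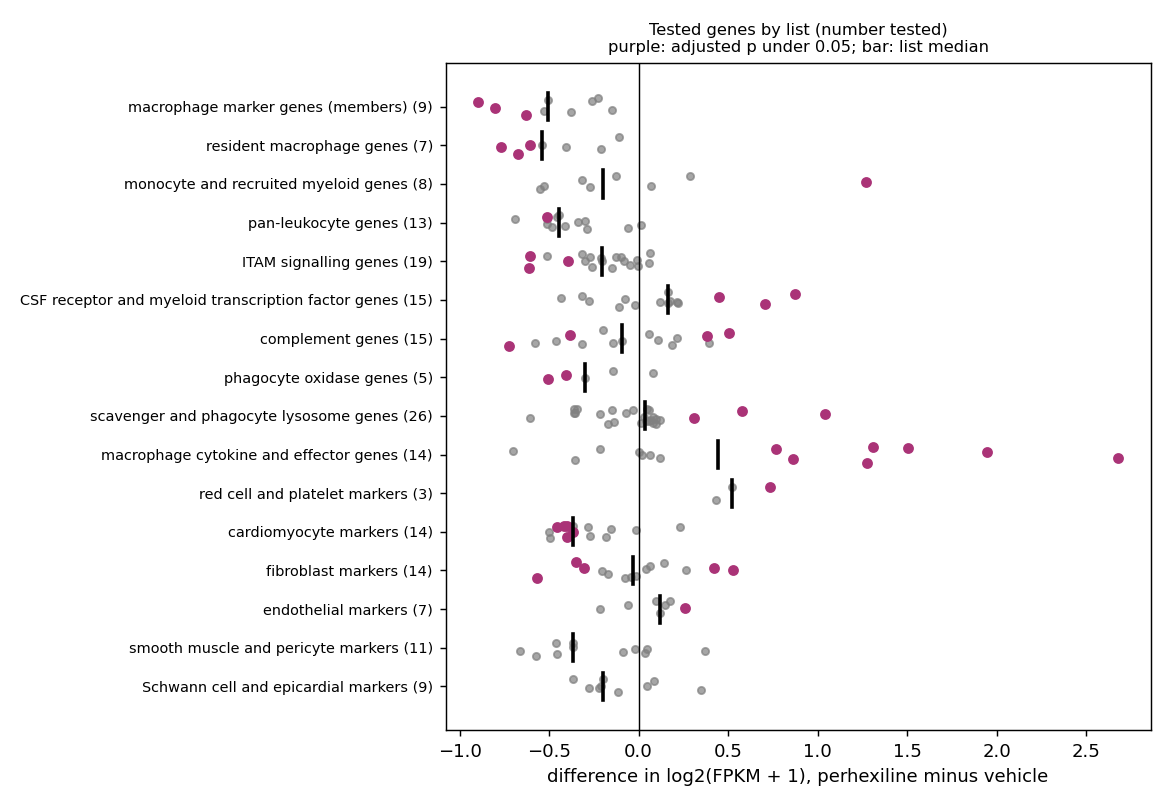
Difference in log2(FPKM + 1), perhexiline minus vehicle, of every tested gene in each list with at least 3 tested genes (number in brackets); purple points passed an adjusted p of 0.05 and the bar is the list's median. All 9 members and all 7 resident macrophage genes lie below 0, while the called cytokine genes lie above it.

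Markers of other blood cells were low, and 1 of them, a globin gene, rose. Of 15 T and NK cell markers found, 7 were listed at 0 in all libraries, Cd3e, Cd3d and Cd3g among them, and the list summed to 2.23 to 3.01 FPKM with vehicle and 1.48 to 2.81 with perhexiline. The 1 tested gene of that list, Cd4, had means of 1.87 ± 0.397 and 1.30 ± 0.698 FPKM (limma adjusted p = 0.375). B cell markers summed to 0.558 to 1.27 and 0.402 to 0.577 FPKM, with Ms4a1 at 0, and neutrophil markers to 1.07 to 1.49 and 0.924 to 1.6, with S100a9 at 0. None of either list could be tested. Red cell and platelet markers summed to 6.89 to 11.2 FPKM with vehicle and 13.1 to 14.4 with perhexiline, without overlap, most of it from globin genes. The other genes of the list, named after their values were seen, were too low to be tested. Alas2 had means of 0.307 and 0.16 FPKM, lower with perhexiline without overlap. Slc4a1, Itga2b and Gp9 also had lower means with perhexiline, Ahsp had a higher one and Ppbp was at 0. Of the 3 tested, all globin genes, Hba-a2 rose from 3.43 ± 1.08 to 6.24 ± 0.304 FPKM (limma adjusted p = 0.0438; held in 1 of the 6 fits without 1 library), and the list's median was 0.52. The globin copies Hba-a1 and Hba-a2 are near-identical, so their split is uncertain. Mast cell markers summed to 7.93 to 9.43 and 7.57 to 9.07 FPKM, nearly all of it from Kit and Hdc, with Fcer1a, whose product joins that of Fcer1g in the IgE receptor, at 0 in all 6 libraries.

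For the counts of other heart cell types, the shares among all tested genes were 3.11% called lower and 3.55% called higher. Of 14 cardiomyocyte markers 5 fell and none rose, with a median of -0.37. Their summed level was lowest in perhexiline replicate 2, as that of the macrophage genes was. None of 11 tested smooth muscle and pericyte markers passed (6 at an unadjusted p under 0.05, all lower, against 12.3% of all tested genes; limma-voom called 4), and they summed to 1316 to 1813 and 1185 to 1419 FPKM. Fibroblast markers had 2 rises and 3 falls among 14 (median -0.03; 1723 to 1790 and 1676 to 1767 FPKM), and endothelial markers 1 rise among 7 (median 0.12; 85.0 to 92.0 and 104 to 105 FPKM). Most of the endothelial sum came from Eng, the gene that rose (67.9 ± 2.88 and 81.4 ± 0.567 FPKM). The rest are named after their values were seen. Cdh5, Vwf, Emcn, Tie1 and Esam had lower means with perhexiline, Kdr, Tek, Flt1, Egfl7 and Erg higher ones, and Cldn5 was at 0. The part of these shifts in the values of the macrophage genes was not tested.

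The genes most like the members were found by Pearson r across the 6 libraries with the mean log2(FPKM + 1) of the 10 members, among 8438 named genes with a mean of at least 5 FPKM. They were Rcsd1, Fundc2, Smpdl3a, Fam173a and Acta1, with r of 0.99 or more. Of these only Smpdl3a passed the test, at 20.2 ± 0.543 and 13.2 ± 2.46 FPKM (limma adjusted p = 0.0337). Over deviations from group means they were Zfc3h1, Fkbp9, Rcsd1, Smpdl3a and Mxra7. An r above 0.9 across the 6 libraries was reached by 535 genes, which is 6.34% of those compared, and over deviations from group means by 191, which is 2.26%. Such values were therefore not particular to the genes named.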

How the data were processed

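Poly(A) RNA libraries, 3 vehicle and 3 perhexiline, were compared, each grouped by its title. The authors deposited 1 FPKM value for each gene in each library, per the column headers. The submitters' processing notes name HISAT2 2.0.5 and DESeq2 without their roles. Build, annotation, counting program and strand setting were not given in the sources used here. Reads of overlapping genes may therefore be mixed.

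FPKM times gene length gave whole multiples of 1 step per library for 100% of positive values (tolerance 0.01), and these were taken as fragments. Replicates were different libraries (0 identical pairs; chi-square per degree of freedom 4.7 to 8.14). The test was limma 3.58.1 (R 4.3.3) on log2(FPKM + 1) for genes reaching 1 FPKM in 3 or more libraries (mean-variance trend, two-sided, group as the only term, Benjamini-Hochberg adjustment over 13460 genes, threshold 0.05). This scale understates changes of low genes. Fold values divide mean FPKM by mean FPKM. The procedure was tested on simulated data. Members and lists were chosen with earlier results of these data known. Named genes were the 10 members, for each list up to 4 called genes of lowest adjusted p, or else the 2 most abundant, and the 5 most alike. Not every gene the rule allows is printed, 1 called gene of a list is not reported here, and genes named outside it are said to be so. Alternatives were 2 other scalings, 2 filters, a pseudocount of 0.1, limma-voom, the replicate number as a block and leaving out each library.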

Additional observations from a re-analysis of the deposited data

How the results depend on the processing

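The differences of the 9 tested members were below 0 in every alternative in which they were tested, and in each of these fits their median lay between -0.66 and -0.31. Both other scalings and a pseudocount of 0.1 called the same 3 members, Mrc1, Tyrobp and C1qa. No member was called with no filter on low values (0 of 10; 7 at an unadjusted p under 0.05), and 1 of 3 tested, Tyrobp, with a mean FPKM of at least 5. Leaving out 1 library gave 0 to 4 called members. Over all genes these fits gave 30 to 449 lower and 56 to 416 higher calls. The count over all genes was 63 lower and 99 higher with no filter, 805 lower and 757 higher with limma-voom, and 815 higher under total-fragment scaling, where 337 were lower. Total-fragment scaling multiplied the vehicle libraries by 0.966 to 0.9998 and the perhexiline libraries by 1.014 to 1.029. The cause of the shifts in these counts was not tested.

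With the replicate number as a block, 0 members were called (6 at an unadjusted p under 0.05, against 11.4% of all genes), and 72 genes were lower and 101 higher. Same-numbered libraries did not deviate together (correlations of -0.0228, -0.101 and -0.0387 for replicates 1, 2 and 3, none best with its own number), so the numbers are not taken as a pairing. Depth limits C1qb, C1qc and Aif1 most, with 2 to 29 fragments per library.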
